A study of Bos indicus x Bos taurus with 17 samples.

Results

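Creatine synthesis and phosphocreatine use were described through 5 genes, GATM, GAMT, CKM, CKB and CKMT2, which were found by symbol among the 21048 genes listed in the liver and skeletal muscle count tables. GATM and GAMT encode the enzymes that make creatine, and CKM, CKB and CKMT2 encode creatine kinases. The libraries came from 6 bovine fetuses at about day 105 of gestation, F1 crosses of Nelore (Bos taurus indicus) and Holstein (Bos taurus taurus), all healthy by the labels. Control-AI 2 and 4 were conceived by artificial insemination (AI), and ART-Normal 1, 2, 3 and 4 were produced in vitro by assisted reproductive technology (ART). The study describes its ART-Normal fetuses as similar in weight to the controls. ART-Normal 4 is given in the labels but not in the study's list of fetuses and their weights. Liver and muscle were taken from the same 6 fetuses, so 12 libraries were used. Each library was made from bulk tissue, in which fewer cells of a type and less RNA per cell cannot be told apart.

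Creatine is built in 2 steps. Glycine amidinotransferase (GATM) transfers the amidino group of arginine to glycine, giving guanidinoacetate and ornithine, and guanidinoacetate methyltransferase (GAMT) methylates guanidinoacetate with S-adenosylmethionine. In adult mammals the first step is best known from kidney and the second from liver, and muscle takes up creatine from the blood through the transporter SLC6A8. Creatine kinases then pass phosphate between ATP and creatine. CKM is the cytosolic kinase of differentiated muscle fibres, where part of it is bound at the M band of the sarcomere, CKB is the cytosolic kinase of brain and many other tissues, and CKMT2 is the mitochondrial kinase of sarcomeric muscle.

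Total counts ranged from 12433300 to 23578362 in muscle and from 18454088 to 43339598 in liver. Levels are given as CPM, counts scaled to a common library size after TMM normalization over the 12 libraries. Marker genes followed the labelled tissues. The summed level of 11 skeletal muscle markers was 20755 to 30695 CPM in muscle and 8.35 to 45.2 CPM in liver. The sum of 8 hepatocyte markers was 328559 CPM in the liver of Control-AI 2 and 25266 to 49831 CPM in the other livers, and in muscle it was 351 CPM and 24.7 to 62.1 CPM. Fetal liver is also a site of blood formation, and 8 erythroid markers summed to 24014 CPM in Control-AI 2 and to 5226 to 6124 CPM in the other livers. Control-AI 2 stood apart from the other libraries in both tissues: on the first principal component it lay at -46.3 in liver and -46.4 in muscle, against 2.65 to 20.1 for the rest. Its marker genes did not move as a set: in liver, AHSG was at 146898 CPM against 3918 to 8197 CPM in the other fetuses and HBG at 20099 against 1111 to 2396 CPM, while HBA was at 3.21 against 49.9 to 106 CPM, and TTR and HNF4A lay within the range of the others. Genes that overlap a gene at least 16 times as abundant on the opposite strand were higher in Control-AI 2 than the mean of the other fetuses, with a median log2 difference of 3.16 in liver and 3.21 in muscle, against -0.04 in both tissues for genes that overlap none there (genes with a mean of at least 1 CPM). The strand setting of the counting is not given in the sources used here, and its part in the differences of this library, 1 of only 2 controls, was not tested. Results on the 5 genes that turn on Control-AI 2 are given with and without it.

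On ARS-UCD1.2, GATM (gene 414732) lies on the plus strand of chromosome 10 from 65098687 to 65114705. GAMT (gene 515270) lies on the minus strand of chromosome 7 from 43814686 to 43817695, and CKMT2 (gene 538944) on the plus strand of the same chromosome from 81249468 to 81274993. CKM (gene 286822) is on the minus strand of chromosome 18 from 52956486 to 52965891, and CKB (gene 516210) on the minus strand of chromosome 21 from 68158058 to 68161259. The listed spans run from transcript start to end with introns included and differ widely, from 3010 bp for GAMT to 25526 bp for CKMT2. Each of the 5 genes overlapped 0 other listed genes on either strand, so reads of an opposite gene do not enter their counts through an overlap in this annotation.

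Muscle was compared with liver to place each step of the pathway in an organ. GATM and GAMT were higher in liver, CKM was found almost wholly in muscle, CKB was higher in liver, and CKMT2 was close to the lower end of detection in both. A fit over all 12 libraries tested 12923 genes with at least 5 CPM in every library of a group, by edgeR's quasi-likelihood test at an adjusted p of 0.05. All 4 tested genes of the 5 passed, where 80.0% of all tested genes passed, 40.0% as higher and 40.0% as lower in muscle. CKM, at 0.712 CPM at most in liver, passed the minimum through muscle alone and could be called as higher there only. CKMT2 was under the minimum and was not tested in that fit. The plot of CPM by library shows these levels.

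**Figure D1:**
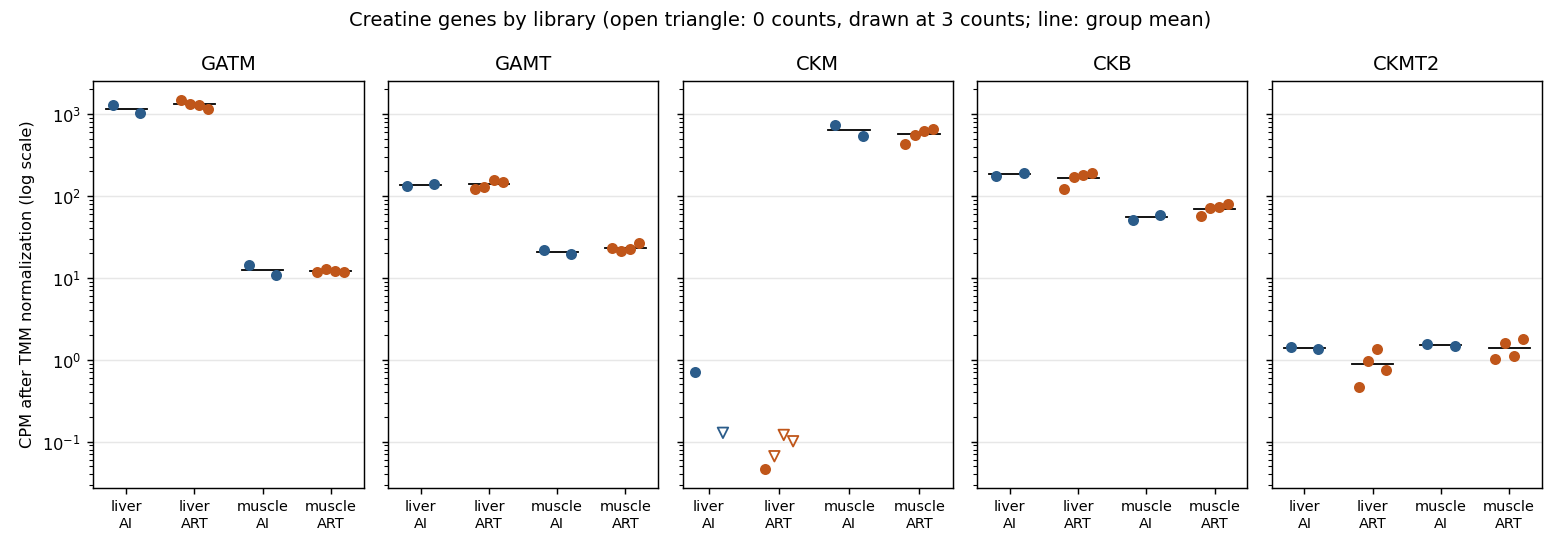
Level of each of the 5 genes in CPM on a log axis, by tissue and method of conception (AI, Control-AI, n = 2; ART, ART-Normal, n = 4). Each point is a library, lines are group means (none for CKM in liver), and open triangles are libraries with 0 counts drawn at the level of 3 counts. GATM, GAMT and CKB lie higher in all liver libraries than in all muscle libraries, CKM lies at 427 CPM or above in muscle and at 0.712 CPM or below in liver, and CKMT2 overlaps between the tissues.

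GATM had the largest liver excess of the group. In liver it was at 1298 and 1023 CPM in Control-AI 2 and 4, and at 1497, 1318.5, 1291 and 1153 CPM in ART-Normal 1 to 4. In muscle it was at 14.2 and 10.7 CPM in Control-AI 2 and 4, and at 11.8, 12.8, 12.02 and 11.8 CPM in ART-Normal 1 to 4. Every liver library therefore lay far above every muscle library, and the spread within a tissue was small. Within single fetuses, liver exceeded muscle by 91.6-fold to 127-fold. The log2 fold change of muscle over liver was -6.66 (standard error, SE, 0.17, edgeR adjusted p = 3.29e-12), and 3.34% of all tested genes were lower in muscle by as much or more. By mean CPM, GATM ranked 54 of the 21048 listed genes in liver and 10000 in muscle.

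Hepatocyte markers in muscle are given beside GATM. Their sum was 0.0638% to 0.176% of the sum in the liver of the same fetus, and GATM in muscle was 0.79% to 1.09% of its liver level. The sum follows its most abundant markers. Of the 8 markers only APOA1 lay near GATM, at 12.5 to 33.0 CPM in muscle and 1539 to 2471 CPM in liver. In Control-AI 2, which had the highest GATM level in muscle and the highest hepatocyte sum there, the shares were 0.107% for the markers and 1.09% for GATM.

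GAMT, the methylating enzyme, differed less between the organs. Its liver level was 133 and 140 CPM in Control-AI 2 and 4, and 121, 127, 157 and 148 CPM in ART-Normal 1 to 4. Muscle held 21.9 and 19.4 CPM in Control-AI 2 and 4, and 23.4, 21.4, 22.2 and 26.7 CPM in ART-Normal 1 to 4. As for GATM, the tissues did not overlap, which held for 64.4% of all tested genes, and the liver excess within a fetus was 5.19-fold to 7.23-fold. The log2 fold change was -2.65 (SE 0.10, edgeR adjusted p = 6.92e-11).

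The balance of the enzymes of synthesis thus turned over between the organs. In liver, the log2 ratio of GATM to GAMT counts ranged from 2.87 to 3.63, and in muscle from -1.17 to -0.63. A ratio within a library does not depend on the scaling between libraries, and gene length cancels when it is compared between tissues. The difference of muscle from liver was -4.07 ± 0.30 on the log2 scale (SD, n = 6 fetuses), in 6 of 6 fetuses. The exact two-sided sign-flip permutation test gave p = 0.03125, also after adjustment over the 3 ratios tested, and this is the smallest p that 6 fetuses allow.

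**Figure D2:**
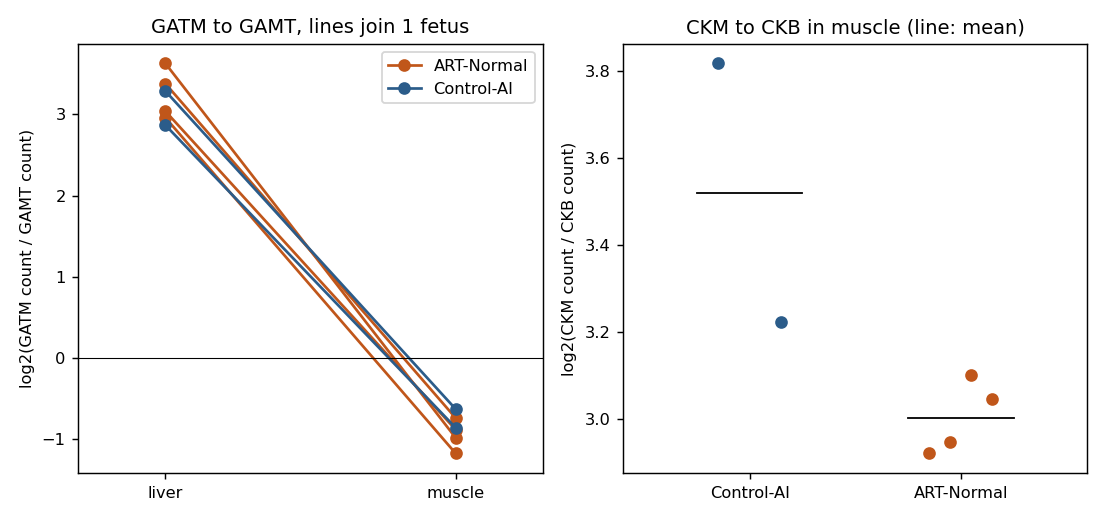
Left, log2 ratio of GATM to GAMT counts in liver and muscle, with a line for each of the 6 fetuses; all lines fall, from between 2.87 and 3.63 in liver to between -1.17 and -0.63 in muscle. Right, log2 ratio of CKM to CKB counts in muscle, with a point for each fetus and a line at the group mean; the 4 ART-Normal fetuses lie between 2.92 and 3.10 and the 2 Control-AI fetuses at 3.22 and 3.82.

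CKM, the kinase of muscle fibres, was at 723 and 543 CPM in the muscle of Control-AI 2 and 4, and at 427, 551, 623 and 661 CPM in ART-Normal 1 to 4. In liver it had 0 counts in Control-AI 4 and in ART-Normal 2, 3 and 4, 1 count in ART-Normal 1 and 10 counts in Control-AI 2. CKM ranked 153 of 21048 genes by mean CPM in muscle. In the 4 fetuses with 0 counts in liver, CKM was at least 4230-fold to 8293-fold higher in muscle, taking 3 counts in the liver library as the limit that a count of 0 allows. In ART-Normal 1 the ratio of muscle to liver was 9245, with a 95% counting interval of 1659 to 365207, and in Control-AI 2 it was 1015, with an interval of 552 to 2118. Intervals and limits cover counting error only. The difference between the tissues had an adjusted p of 4.58e-11 from edgeR, a call that could go in this direction only. The fitted fold change is not given because it depends on the small value that the fit adds to counts near 0.

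The 10 CKM counts in the liver of Control-AI 2 came with other muscle genes. The 11 skeletal muscle markers summed to 45.2 CPM in that library and to 8.35 to 11.5 CPM in the other liver libraries. As a share of the muscle library of the same fetus, the marker sum was 0.174% and CKM 0.0985% in Control-AI 2. In the other 5 fetuses these shares were 0.036% to 0.0414% for the markers and 0% to 0.0108% for CKM.

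CKB, the kinase of brain and other tissues, was the creatine kinase of the liver libraries. It was at 174 and 191 CPM in Control-AI 2 and 4, and at 121, 170, 179 and 189 CPM in ART-Normal 1 to 4. Muscle levels were 51.3 and 58.1 CPM in Control-AI 2 and 4, and 56.3, 71.5, 72.5 and 79.9 CPM in ART-Normal 1 to 4. The lowest liver library, ART-Normal 1, still lay above the highest muscle library. Liver exceeded muscle by 2.16-fold to 3.39-fold within fetuses, with a log2 fold change of muscle over liver of -1.49 (SE 0.13, edgeR adjusted p = 1.48e-07). Summed erythroid markers differed between the tissues in the same direction (5226 to 6124 CPM in liver and 203 to 655 CPM in muscle without Control-AI 2, and 24014 and 91.3 CPM in Control-AI 2). Sums of smooth muscle markers (102 to 187 CPM in liver, 427 to 608 CPM in muscle) and of nerve and Schwann cell markers (5.64 to 11.7 CPM and 48.5 to 135 CPM) were higher in muscle. Not every marker followed its sum. MYH11 was higher in liver in each fetus, at 16.2 to 56.1 CPM against 6.46 to 45.9 CPM in muscle. HBA1 was higher in muscle in every fetus but Control-AI 2, and HBA in ART-Normal 4. ELAVL4 was higher in muscle in no fetus, and TUBB3 differed in direction between fetuses. The part of erythroid, smooth muscle and nerve cells in the CKB level was not tested.

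CKMT2, the sarcomeric mitochondrial kinase, was low in both tissues. Its liver counts were 20 and 32 in Control-AI 2 and 4 and 10, 44, 34 and 22 in ART-Normal 1 to 4, or 0.461 to 1.42 CPM. Muscle counts were 21 and 36 in Control-AI 2 and 4 and 25, 29, 25 and 36 in ART-Normal 1 to 4, or 1.01 to 1.80 CPM. These ranges overlapped, although CKM was abundant in the same muscle libraries. Without a minimum on low counts, its log2 fold change of muscle over liver was 0.37 (SE 0.36, edgeR adjusted p = 0.391, 95% normal interval -0.34 to 1.08). A difference of that size was not called at these counts. Within fetuses the ratio of muscle to liver was 0.80 in ART-Normal 3 and above 1 in the others, up to 2.43. Its 95% counting interval was 1.01 to 5.10 in ART-Normal 1 and 1.39 to 4.33 in ART-Normal 4, and it included 1 in the other fetuses. These intervals cover counting error only. Relative to CKM, the log2 ratio of CKMT2 counts was -9.12 to -8.39 in muscle. The other mitochondrial kinase gene in the tables, CKMT1A (gene 281692), is the ubiquitous form, and it had 0 to 2 counts in each library. CKMT1A overlaps STRC in the annotation, so those few counts are uncertain.

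Among the counts of the 4 kinase genes, CKM held 88.2% to 93.2% in muscle and 0% to 0.405% in liver, and CKB held 6.6% to 11.6% in muscle and 98.7% to 99.6% in liver. CKMT2 held 0.158% to 0.258% in muscle and 0.379% to 0.81% in liver. Dividing by the listed spans lowered the muscle share of CKM to 72.0% to 82.7%, since CKB has the shorter span, and left CKB at 99.7% or more in liver. The log2 ratio of CKM to CKB, with 0.5 added to each count, was 15.22 ± 2.07 higher in muscle than in liver (SD, n = 6, higher in 6 of 6 fetuses, exact sign-flip permutation p = 0.03125, the smallest possible). Its size depends on the added value, since the liver counts of CKM are near 0. With CKM near 0 in liver and CKB higher there, the direction in each fetus was set before this test, so its p adds no support.

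**Figure D3:**
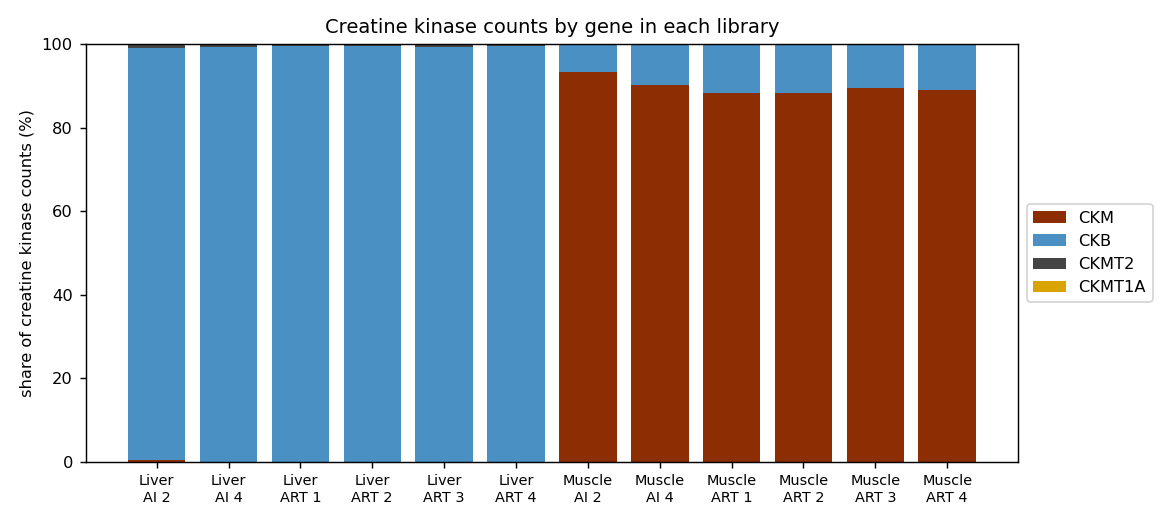
Share of creatine kinase counts by gene in each of the 12 libraries, as stacked bars from 0 to 100%. CKB fills 98.7% or more of each liver bar, and CKM fills 88.2% to 93.2% of each muscle bar with CKB as nearly all of the rest.

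Levels of different genes were compared per kb of listed span. In muscle the order was CKM, CKB, GAMT, GATM and CKMT2 in all 6 libraries, and the ranges did not overlap: 45.4 to 76.9 CPM per kb for CKM, 16.01 to 24.96 for CKB, 6.44 to 8.86 for GAMT, 0.667 to 0.884 for GATM and 0.0395 to 0.0706 for CKMT2. GATM led in all 6 liver libraries, at 63.8 to 93.5 CPM per kb. CKB at 37.9 to 59.6 and GAMT at 40.3 to 52.2 CPM per kb overlapped there, and GAMT was above CKB in ART-Normal 1. CKMT2, at 0.0181 to 0.0558 CPM per kb, and CKM, at 0 to 0.0757, came last in liver. The spans include introns, so these values understate genes with long introns, and the order of genes may differ with exon lengths, which were not used here.

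Genes that move creatine or supply its synthesis were described from lists chosen with earlier results of these data known. Of 41 tested genes on the 6 lists, 13 were higher and 23 lower in muscle than in liver, and 5 did not pass the threshold. Of all tested genes 80.0% passed, 40.0% in each direction. Some of the listed genes, named below, passed the minimum through 1 tissue alone, so these counts are no support for the lists. Of the 49 members and list genes in the tables, 7 overlap a gene on the opposite strand, so their counts are uncertain. Among these, ARG2, ASL, ADK and SHMT2 were counted as lower in muscle, and ARG2 ranged from 9.28 to 206 CPM in liver. The creatine transporter SLC6A8 was at 33.1 ± 6.57 CPM in liver and 15.9 ± 2.73 CPM in muscle (SD, n = 6), a log2 fold change of -1.13 (SE 0.15, edgeR adjusted p = 1.5e-05). SLC16A12, a monocarboxylate transporter family member that also carries creatine, was at 110 ± 12.9 CPM in liver and 75.1 ± 8.85 CPM in muscle (log2 fold change -0.55, SE 0.09, edgeR adjusted p = 0.000121). Both transporters were thus lower in muscle, by far less than GATM.

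For the methyl donor cycle, which makes S-adenosylmethionine and clears its product, 5 of 8 tested genes were lower in muscle, 1 was higher and 2 did not pass. Among all tested genes 40.0% were lower and 40.0% higher. MAT1A, the hepatic methionine adenosyltransferase, was at 463 to 882 CPM in liver and 0.0404 to 1.47 CPM in muscle. PEMT, which uses the same methyl donor to make phosphatidylcholine, fell from 191 ± 38.9 to 15.4 ± 3.03 CPM (SD, n = 6; log2 fold change -3.72, edgeR adjusted p = 4.05e-10). AHCYL2, a relative of the enzyme that hydrolyses S-adenosylhomocysteine, was higher in muscle (log2 fold change 0.48, edgeR adjusted p = 6e-04), and MAT2B, a regulatory subunit, had a log2 fold change of 0.16 (edgeR adjusted p = 0.587). GNMT, a methyltransferase of glycine, was under the minimum, with 1.49 CPM at most.

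Of 7 genes of arginine and ornithine metabolism, 6 were lower in muscle and 1 did not pass. The urea cycle enzyme OTC was at 194 to 270 CPM in liver and 0.0404 to 0.369 CPM in muscle, and ARG1, the arginase of liver, was at 145 to 224 CPM in liver and 0 to 0.351 CPM in muscle. Among 6 glycine genes, 5 were lower in muscle and 1, GCSH, did not pass. GLDC, which cleaves glycine in mitochondria, was at 90.3 to 152 CPM in liver and 0.2 to 1.84 CPM in muscle. SHMT1, which makes glycine from serine and overlaps SMCR8 on the opposite strand, so that its counts are uncertain, was at 36.0 ± 4.81 and 3.07 ± 0.89 CPM (SD, n = 6; log2 fold change -3.50, edgeR adjusted p = 8.14e-10). Most tested genes of these 3 lists were thus lower in muscle, in a comparison where 40.0% of all tested genes were. MAT1A, ARG1, OTC, GLDC and SHMT1, at 4.72 CPM at most in muscle, passed the minimum through liver alone. They could be called in that direction only. ARG2, at 1.94 to 25.7 CPM in muscle, also passed the minimum through liver alone. The counts are therefore no support for the lists.

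Adenylate kinases and carriers that exchange ATP across the mitochondrial membranes were split, with 5 of 11 tested genes higher in muscle, 5 lower and 1 not past the threshold, close to the 40.0% each way of all tested genes. AK1, the cytosolic adenylate kinase of muscle, rose from 15.4 ± 2.27 CPM in liver to 54.8 ± 7.09 CPM in muscle (SD, n = 6; log2 fold change 1.82, edgeR adjusted p = 4e-08), and the porin VDAC2 rose by 0.96 on the log2 scale (edgeR adjusted p = 0.00026). The mitochondrial kinase AK4 was lower in muscle, with a log2 fold change of -4.09 (SE 0.18, edgeR adjusted p = 2.05e-10). All 7 listed genes of the M band and of other sites where muscle creatine kinase supplies ATP were higher in muscle, where 40.0% of all tested genes were. MYOM1, MYOM2, MYOM3 and ATP2A1, with liver means of 0.462 to 1.82 CPM, passed the minimum through muscle alone and could be called in that direction only, so the count is no support for the list. MYOM2, a myomesin of the M band, was at 477 to 722 CPM in muscle and 0 to 2.56 CPM in liver, and the calcium pump ATP2A1, which overlaps RABEP2 on the opposite strand, was at 193 to 381 CPM in muscle and 0.0887 to 0.855 CPM in liver. GCSH and the ADP/ATP carrier SLC25A6 passed when the fetus was fitted as a block: with the fetus as a block their edgeR adjusted p was 0.00641 and 0.000376, against 0.224 and 0.327 with no block, and without Control-AI 2 it was 0.00103 and 0.00546.

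**Figure D4:**
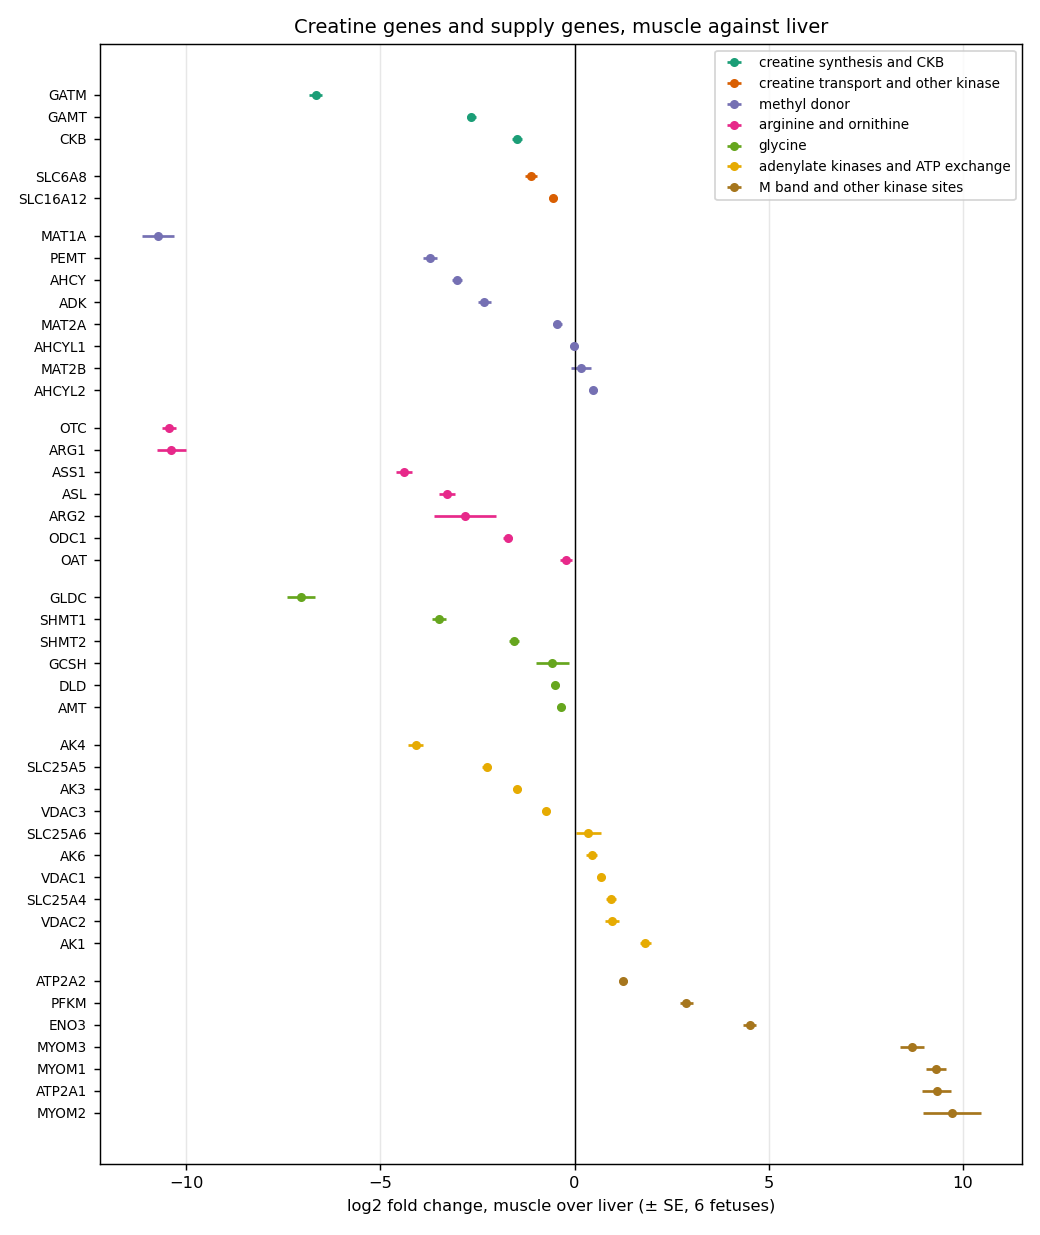
Log2 fold change of muscle over liver with its standard error (6 fetuses in each tissue) for GATM, GAMT, CKB and tested genes of 6 lists; CKM is left out because its liver counts are near 0. Genes of the methyl donor, arginine and glycine lists lie mostly left of 0 with GATM and GAMT, and the 7 genes of the M band list lie right of 0.

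ART-Normal was then compared with Control-AI within each tissue, the study's comparison of methods of conception. In liver 3 of the 5 genes could be tested and 0 passed, where 0.0% of 11304 tested genes passed; in muscle 4 could be tested and 0 passed, where 0.00855% of 11695 genes passed, a single gene, ANKRD1, named after its value was seen. None of the tested members (0) had an unadjusted p under 0.05 in either tissue, against 8.39% of all tested genes in liver and 9.19% in muscle, and 0 passed with the likelihood ratio test or DESeq2. The groups overlapped for all 5 genes in both tissues, where 18.5% of all tested genes in liver and 15.5% in muscle did not overlap. Among the 15 ways to split 6 libraries into 4 and 2, the smallest permutation p is 0.0667, so an exact test of a single gene cannot reach 0.05.

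Fold changes of conception set ART-Normal relative to Control-AI. In liver, GATM was at 0.16 on the log2 scale (SE 0.19, edgeR adjusted p = 0.759). Leaving out Control-AI 2 gave 0.37 and leaving out Control-AI 4 gave -0.0083, as ART-Normal 1 and 2 lay above both controls and ART-Normal 3 and 4 between them. GAMT was at 0.0037 (SE 0.14, edgeR adjusted p = 0.993) and CKB at -0.16 (SE 0.18, edgeR adjusted p = 0.75). For CKB the lower mean came with ART-Normal 1, at 121 CPM, while the other ART-Normal livers, at 170 to 189 CPM, were close to the controls. Scaled by library size alone, with the median of all liver genes at 0.21, CKB was at 0.04.

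In muscle, CKB gave the largest difference of the tested members, with a log2 fold change of 0.34 (SE 0.16, edgeR adjusted p = 0.555). ART-Normal 2, 3 and 4 were above both controls, and ART-Normal 1, at 56.3 CPM, lay between them. With each fetus left out in turn the value was 0.26 to 0.42. CKM was at -0.19 (SE 0.20, edgeR adjusted p = 0.825) and at 0.05 without Control-AI 2, which had the highest CKM level. ART-Normal 1 was the lowest in CKM and also had the lowest skeletal muscle marker sum, 20755 CPM against 25436 to 30695 CPM in the other muscle libraries; the part of fibre content in its CKM level was not tested. GATM was at -0.05 (SE 0.19, edgeR adjusted p = 0.96) and at 0.17 without Control-AI 2, and GAMT at 0.16 (SE 0.16, edgeR adjusted p = 0.81).

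**Figure D5:**
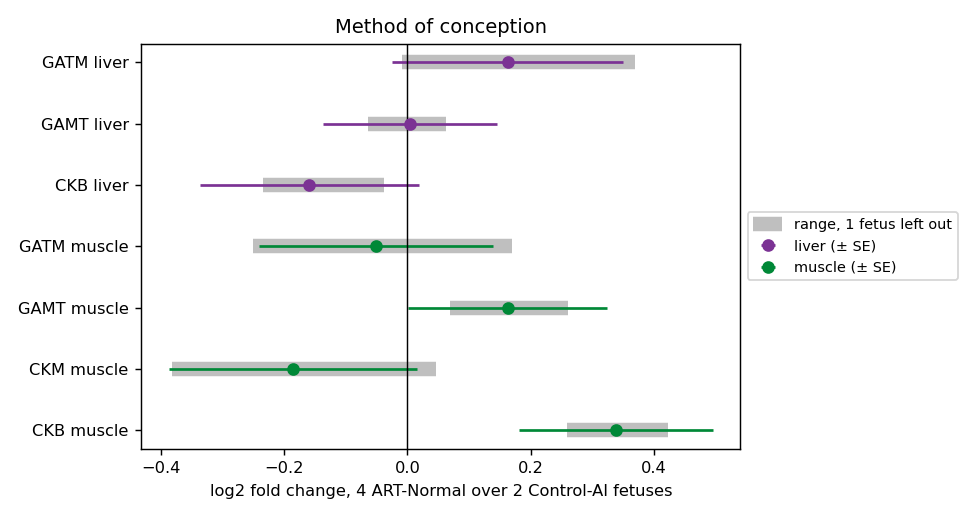
Log2 ratio between ART-Normal (4 fetuses) and Control-AI (2 fetuses), positive where ART-Normal is higher, with its standard error for the members tested in liver (purple) and in muscle (green). Grey bars give the range with 1 fetus left out; those of GATM and GAMT in liver and of GATM and CKM in muscle cross 0, and that of CKB in muscle runs from 0.26 to 0.42.

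The ratio of CKM to CKB within muscle libraries did not overlap between the groups, as was so for 15.5% of single genes tested in muscle. Muscle of Control-AI 2 and 4 held 14.1 and 9.34 CKM counts for each CKB count, and ART-Normal 1 to 4 held 7.58 to 8.58. On the log2 scale the means differed by -0.52 (exact two-sided permutation p = 0.0667, the smallest that 15 splits allow, and 0.4 after adjustment over the 6 ratio comparisons of conception), which does not pass the threshold. Against Control-AI 4 alone the difference was -0.22. Ratios of GATM to GAMT differed by 0.17 in liver and -0.20 in muscle (exact permutation p = 0.533 and 0.333), and their groups overlapped. The ratio of CKM to CKB in liver differed by -2.32, and that of CKMT2 to CKM by 1.73 in liver and -0.0043 in muscle (exact permutation p = 0.267, 0.533 and 1.0), where the liver values rest on CKM counts of 0 to 10.

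A fit over both tissues tested whether the effect of conception differed between muscle and liver. Of the 4 members tested, 0 passed by edgeR's quasi-likelihood test, where 0.0% of 12923 genes passed, and 1, CKM, had an unadjusted p under 0.05 (edgeR adjusted p = 0.789), as did 5.5% of all tested genes. The likelihood ratio test gave CKM an adjusted p of 0.00915 and DESeq2 gave 0.274. That value for CKM rested on the 10 liver counts of Control-AI 2. Without that fetus 1 CKM count was left in liver, and the log2 value was -1.38 with an SE of 2.53, so its sign is not settled. For CKB the difference between the tissues was 0.49 (SE 0.25, edgeR adjusted p = 0.929), for GATM -0.23 and for GAMT 0.15 (edgeR adjusted p = 0.959 and 0.96). With the fetus as a block, 2 of the 4 had an unadjusted p under 0.05, CKB at 0.00219 and CKM at 0.0226 from edgeR, as did 9.52% of all tested genes, and 0 passed after adjustment. The CKB value was then 0.50 (SE 0.11, edgeR adjusted p = 0.509).

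The genes whose log2 CPM followed each member most closely over the 12 libraries were listed as a description; the tissues set most of these correlations, and n is 12 libraries from 6 fetuses. For GATM they were XPO7, NPC1L1 and PYGL (Pearson r = 0.999 for each), for GAMT SLC7A7, E2F2 and FEN1 (r = 0.999, 0.998 and 0.998), and for CKM HSPB7, SCN3B and LOC112445124 (r = 0.999 for each). CKB was most like SLC17A9, ALDH4A1 and SH3TC1 (r = 0.991, 0.986 and 0.985). CKMT2, which did not follow the tissues, reached only r = 0.868 with ANO2, 0.861 with FAAP100 and 0.859 with TXNDC5. Within a tissue these values were lower. Over the 6 liver libraries, r with GATM was 0.778, 0.407 and 0.438 for XPO7, NPC1L1 and PYGL, r with GAMT was 0.735 to 0.809 for its 3 genes, and r with CKB was 0.80 to 0.912. Over the 6 muscle libraries, r with CKM was 0.839, 0.703 and 0.633 for HSPB7, SCN3B and LOC112445124, and r with CKMT2 was 0.687, 0.795 and 0.346 for ANO2, FAAP100 and TXNDC5.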

How the data were processed

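The authors deposited raw read counts per gene for liver and muscle, with no normalization, on ARS-UCD1.2. The labels describe poly(A)-selected, strand-specific, paired-end libraries. The submitters' processing notes name FastQC 0.11.7, HISAT2 2.1.0, Cufflinks, SAMtools, featureCounts and edgeR 3.24.3; the strand setting is not given in the sources used here. Each listed length equals the whole gene span, so introns were inside the counted regions. Of 13 count columns per table, 6 were matched to samples by fetal ID and 14 in all were not used. The authors' tables of fold changes, p-values and FDR from their comparisons were not used, and kidney libraries were not analysed here.

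Counts were tested with edgeR 4.0.16 in R 4.3.3: TMM, a minimum of 5 CPM in every library of a group, the quasi-likelihood test without covariates, two-sided p-values with Benjamini-Hochberg adjustment over all tested genes, at a threshold of 0.05. The SE of a fold change was taken from its F statistic. Tissue and interaction fits used 12 libraries in 4 groups, and conception fits used the 6 libraries of a tissue. Ratios added 0.5 to counts. Each fetus is 1 replicate, and the pairs of libraries within a tissue differed beyond sampling noise. Liver and muscle are paired by fetus, the same animal: across genes, liver and muscle deviations from group means had r = 0.0379 to 0.315 in the 4 ART-Normal fetuses. The 2 Control-AI fetuses share 1 value, 0.356, since deviations from a mean of 2 mirror each other. Alternatives were RLE, upper quartile and library size scaling, the likelihood ratio test, DESeq2 1.42.0, no minimum, at least 10 counts in every library, ART-Normal 1 to 3, replicate blocks, a joint fit, and leaving out each fetus. Procedures were tested on simulated data with 200 changed genes. Python 3.11.15, pandas 2.3.3, SciPy 1.17.1 and Matplotlib 3.10.9 were used for tables and plots.

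The 5 members and all lists were chosen with earlier results of these data known. Named genes are the members, SLC6A8, SLC16A12, CKMT1A, per list up to 2 with the largest positive and 2 with the largest negative fold change, and the 3 genes most like each member; 1 list gene under this rule is not reported here or plotted. GNMT, GCSH, MYOM1, MYOM3, AHSG, HBG, HBA, TTR, HNF4A, SLC25A6 and ANKRD1 were named after their values were seen. So were APOA1, MYH11, HBA1, ELAVL4, TUBB3, ARG2, ASL, ADK and SHMT2. Exon lengths were not used here, so levels per length use listed spans.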

Additional observations from a re-analysis of the deposited data

Results flagged for a closer look

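In 10 groups of 4 ART-Normal libraries (5 genes in 2 tissues), 1 library lay far from the others: CKM in the liver of ART-Normal 1, at 0.0461 CPM, where the other 3 had 0 counts, so that its gap to the nearest library was 1.0 of the whole range. It rests on 1 count. With 3 libraries at 0 counts, any count in the other gives a gap of 1.0, so the flag was fixed in advance. The rate of about 1 in 20 groups with a library set apart by chance does not apply to this group.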

How the results depend on the processing

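The muscle against liver calls of GATM, GAMT, CKM and CKB kept their direction and their side of the threshold under every alternative run for them, the fetus as a replicate block among them; that block changed no call of a member and, of the list genes, those of GCSH and SLC25A6. A minimum of 10 counts in every library removed CKM, so it has no value there. The count of genes called between the tissues was 10054 to 10220 with a fetus left out. Among 40 called genes of the members and lists, 0 changed sign under the other scalings; library size alone, which raised the median of all genes to 0.17, lost the calls of MAT2A and AMT.

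Counts of all genes called by conception moved with the test. In liver, where the quasi-likelihood test called 0, they were 89 by the likelihood ratio test, 56 by DESeq2, 6 with library size alone, 6 with the label number as a replicate block, 4 in the joint fit, 2 with ART-Normal 1 to 3, and 0 to 830 with a fetus left out. In muscle, against 1, they were 120, 106, 90 with the label number as a replicate block, 0 with ART-Normal 1 to 3, and 0 to 1327 with a fetus left out. For the interaction, against 0, they were 98, 37, and 0 to 232 with a fetus left out. The highest counts came without Control-AI 4, which leaves Control-AI 2 as the lone control, assumed to vary like the other group. The numbers 2 and 4 shared by ART-Normal and Control-AI are names of different fetuses, and libraries with the same number deviated together at r of -0.126 to 0.0121.

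GAMT in liver, close to 0, changed sign to -0.0024 with RLE, -0.036 with the upper quartile, -0.0025 with DESeq2, -0.033 with ART-Normal 1 to 3 and -0.0075 with the label number as a replicate block, and ranged from -0.064 to 0.063 with a fetus left out. GATM ranged from -0.0083 to 0.37 in liver and from -0.25 to 0.17 in muscle, and CKM in muscle from -0.38 to 0.047. CKB in liver was 0.040 with library size alone, and the interaction of GAMT was -0.058. The interaction of CKM ranged from -1.38 (SE 2.53, without Control-AI 2) to 5.69 with a fetus left out, and it was 5.35 without Control-AI 4. These fitted values rest on liver counts near 0 and depend on the small value that the fit adds to them.

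In ART-Normal alone, the ratio differences between the tissues were 15.8 for CKM to CKB, -13.9 for CKMT2 to CKM and -4.19 for GATM to GAMT, where 4 fetuses cannot give an exact permutation p under 0.125. With a fetus left out they were 14.9 to 15.9, -14.0 to -12.9 and -4.14 to -3.96, where 5 fetuses cannot go under 0.0625. With 5 added to each count CKM to CKB was 12.6 and CKMT2 to CKM was -10.7. Exon lengths were not run, as no annotation of this build was used here. CKMT2 counts of 10 to 44 limit what can be said of it.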
